A study of Mus musculus with 24 samples.

Results

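The intermediate filament and reactive astrocyte genes are 10 genes, Gfap, Vim, Nes, Synm, Serpina3n, Lcn2, Cd44, Osmr, S1pr3 and Steap4, out of 18193 genes tested. They were chosen by name, as filament proteins of astrocytes and genes known from reactive astrocytes, with earlier results of these data known. Each was read by the probe set of 1 gene symbol with the highest mean over the 24 arrays. All 10 were found, with 25 probe sets in all.

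RNA came from the cerebral cortex of heterozygous aldh1l1 – eGFP-L10a mice, in which the Aldh1l1 promoter, active in astrocytes, drives ribosomal protein L10a fused to eGFP. All groups carry this transgene. Immunoprecipitation of the tagged ribosomes gave the bound fraction and the supernatant gave the unbound fraction. There were 6 bound arrays, each of 1 animal, for sleep deprivation, for waking and for sleep. There were 2 unbound arrays for each state, each a pool of 3 animals (animals 1 to 3 and animals 4 to 6). Sleep-deprived mice had been awake for most of the dark phase and were then kept awake for 4 h of the light phase with unfamiliar objects. Waking mice were killed at 3 to 5 in the night, after a wake bout of over 1 h. Sleeping mice were killed at 3 to 5 in the afternoon, after a sleep bout of over 45 min. Waking thus differed from both other states in the time of day as well. No clock time of death is given here for the sleep-deprived mice, so time of day may also differ between sleep deprivation and sleep.

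Astrocytes build their intermediate filaments from glial fibrillary acidic protein and vimentin, with nestin and synemin as partners that need another filament protein to assemble with. After injury or inflammation astrocytes become reactive: they make more filament protein, secrete the serpin Serpina3n and the siderophore-binding lipocalin-2, and carry more of the hyaluronan receptor CD44, the oncostatin M receptor, the sphingosine-1-phosphate receptor S1PR3 and the metalloreductase STEAP4. Cytokines that signal through the receptor chain gp130 to the transcription factor STAT3 are a main inducer of this state.

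Because STAT3 is a known inducer of the reactive state, the start regions were searched for its site. RefSeq windows of 300 bases (250 before to 50 after the start, GRCm38.p6) were available for 10 of the 10 genes. The palindrome TTCNNNGAA, the same on both strands, was in 2 of the 10 windows, against 8.47% of 27025 windows of all genes. They are shown here because Gfap and Steap4 were the only 2, with the palindrome in capitals. The first lies on the minus strand at chr11:102897184-102897212, its palindrome starting 2 bases before the RefSeq start of Gfap. The second lies on the plus strand at chr5:7960346-7960374, its palindrome starting 116 bases before the start of Steap4.
Gfap: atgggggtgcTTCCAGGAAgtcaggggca
Steap4: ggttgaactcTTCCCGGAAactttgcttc
The pattern TGANTCA, also its own reverse complement, is a looser form of the activator protein 1 site with any base at its centre. It was in 1 of 10 windows, that of Osmr, against 7.93% of all windows. The Osmr match has T at the centre and is not read as that site. A match describes these letters only.

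All levels are deposited log2 values from robust multi-array averaging (RMA), in which 1 unit is a factor of 2, and a level is compared only within 1 probe set. The array medians lay between 5.51 and 5.88. Differences were tested with limma over all genes, with Benjamini-Hochberg adjustment and a threshold of 0.05, and ± after a difference is the standard error of the fit. Each printed log2 difference between groups is relative to the median difference of all genes, which was 0.16 for bound against unbound. Within the bound fraction that median was 0.11 for sleep deprivation against sleep, 0.09 for waking against sleep and 0.02 for sleep deprivation against waking. Within the unbound fraction it was 0.18, 0.30 and -0.12 for the same comparisons. For the difference of state effects, bound minus unbound, it was -0.06 for sleep deprivation and -0.22 for waking. The adjusted p belongs to the difference before this shift. In all 48 of 48 pairs of arrays of 1 group at least 1 value was tied to the last digit, and in 0 of 228 pairs from different groups. Which arrays were normalized together is not given in the sources used here, so normalization run and group cannot be told apart. In these bulk samples fewer cells of a type and less RNA per cell cannot be told apart.

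The bound fraction carried the astrocyte markers. Aldh1l1 lay between 10.52 and 11.27 on the 18 bound arrays, against 6.75 to 7.23 on the 6 unbound arrays, and 12 of 12 astrocyte markers tested were higher in the bound fraction. Of the neuronal markers 10 of 12 were lower in it, yet Snap25 was still at 13.33 to 13.78 there, against 13.90 to 14.19 in the unbound fraction. Markers of meninges and fibroblasts were higher in the bound fraction for 9 of 10 genes, and those of ependyma and choroid plexus for 5 of 11, with 1 lower. The choroid plexus gene Ttr ranged from 8.99 to 14.30 over the bound arrays and from 8.24 to 13.47 over the unbound arrays.

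The first question was which of these genes the pull-down enriched. Of the 10 genes, 8 were higher in the bound fraction (Vim, Gfap, Osmr, Lcn2, Cd44, Serpina3n, Nes and Steap4), 1 was lower (Synm) and S1pr3 did not pass the test. The calls of Nes and Steap4 were lost when arrays were centred on their medians. This is read against a comparison in which 69.4% of all genes passed and 42.2% were higher. The median log2 difference of the 10 genes was 1.43. For 5 of the 10 (Gfap, Vim, Serpina3n, Lcn2 and Cd44) every bound array lay above every unbound array, whereas 27.3% of all genes had fractions that did not overlap.

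**Figure D1:**
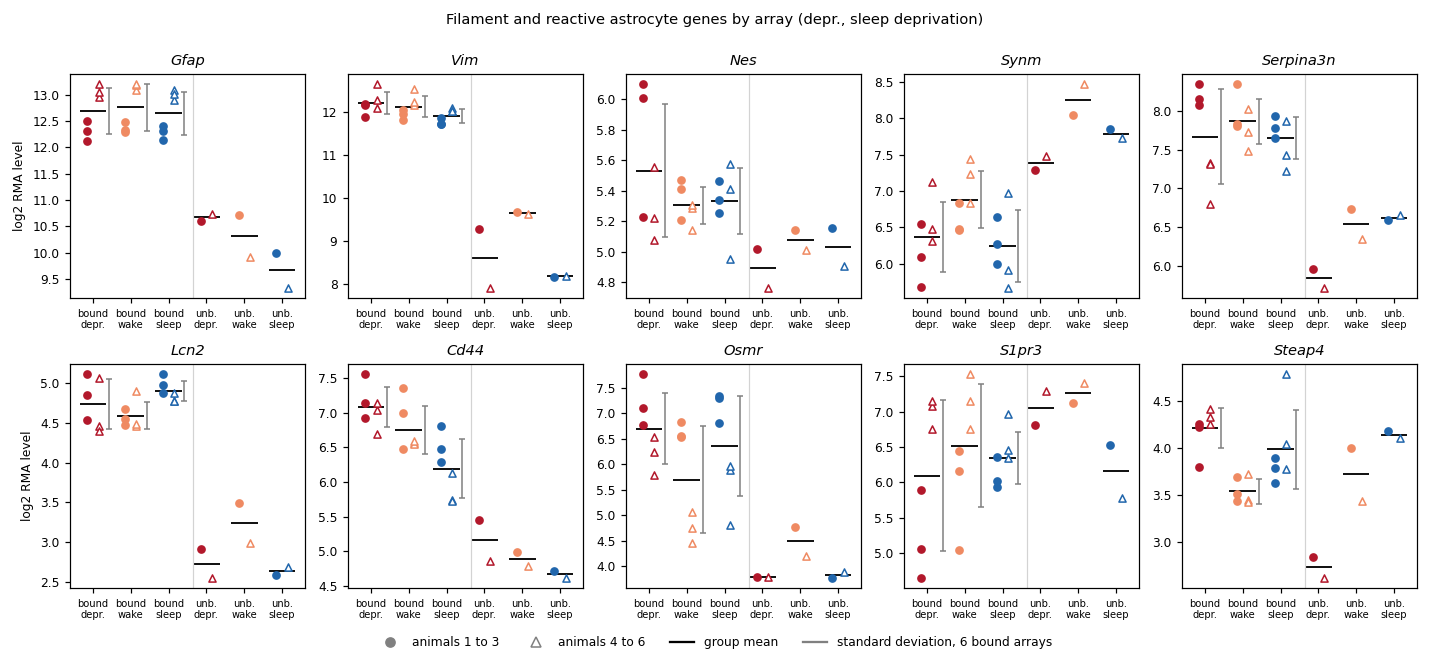
Log2 RMA level (y axis) of the 10 genes on every array, by fraction and state (x axis). Circles are arrays of animals 1 to 3, triangles arrays of animals 4 to 6, black lines group means and grey bars the standard deviation of the 6 bound arrays. Gfap and Vim are high on all bound arrays, Synm is high on the unbound arrays, and circles and triangles of Gfap and Osmr stand apart in the bound fraction.

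Among the filament genes, Gfap, the astrocyte filament protein, had in the bound fraction a lowest, median and highest level of 12.13, 12.72 and 13.20 in sleep deprivation, 12.28, 12.79 and 13.20 in waking, and 12.14, 12.66 and 13.09 in sleep. In the unbound pools it was at 10.61 and 10.74 in sleep deprivation, 10.71 and 9.93 in waking, and 10.001 and 9.34 in sleep. The bound states overlapped over nearly their whole range, and every bound array lay above every unbound pool. The bound fraction was 2.32 ± 0.19 higher on the log2 scale, 4.98-fold (adjusted p = 2.36e-10). The other 2 probe sets of Gfap gave 3.59 ± 0.11 and 3.70 ± 0.06.

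Vim, the filament protein vimentin, had the largest difference of the 10 genes, 3.10 ± 0.14 or 8.60-fold (adjusted p = 1.15e-14). Its lowest, median and highest bound levels were 11.89, 12.18 and 12.65 in sleep deprivation, 11.82, 12.11 and 12.53 in waking, and 11.72, 11.95 and 12.09 in sleep. The unbound pools were at 9.30 and 7.92 in sleep deprivation, 9.69 and 9.64 in waking, and 8.18 and 8.19 in sleep. The bound arrays were again all above the pools, and among the pools the waking pair was the highest. All 3 probe sets of Vim gave similar values for the fractions, from 2.84 to 3.10.

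Nes, which encodes nestin of neural progenitors, was dim, with a bound mean of 5.39 below the median of all probe sets on these arrays (5.80). It was 0.23 ± 0.13 higher in the bound fraction (adjusted p = 0.0103), a call lost when arrays were centred on their medians (adjusted p = 0.0515), with levels of 4.96 to 6.10 on bound arrays and 4.76 to 5.16 in unbound pools, which overlapped. Its other 2 probe sets gave 0.81 ± 0.20 and 0.37 ± 0.20.

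Synm, the gene of synemin, ran the other way. It lay between 5.66 and 7.44 on the bound arrays, with medians of 6.39 in sleep deprivation, 6.84 in waking and 6.13 in sleep. In the unbound fraction the pools were at 7.29 and 7.48 in sleep deprivation, 8.05 and 8.47 in waking, and 7.85 and 7.72 in sleep. It was lower in the bound fraction by -1.47 ± 0.19, a level of 0.36 times that of the unbound fraction (adjusted p = 3.38e-06), and the highest bound waking array, at 7.44, reached into the range of the pools. The second Synm probe set gave -1.17 ± 0.20.

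Other genes of the filament family, from a list of 17, were higher in the bound fraction for 4 and lower for 6, with a median of -0.16. The neuronal filament genes Nefm (-3.36), Nefh (-2.33) and Ina (-1.93) fell furthest, while the keratin genes Krt8 (1.02) and Krt5 (0.74) and the lamin gene Lmnb1 (0.60) were higher. Of 9 linkers, chaperones and modifiers of filaments, 3 were higher and 3 lower. The small heat shock gene Hspb1 (1.87), the arginine deiminase gene Padi2 (1.64), whose enzyme citrullinates filament proteins, and the crystallin gene Cryab (0.43) were higher. The cytolinker genes Dst (-1.78) and Macf1 (-0.97) and the neurofilament-binding ligase gene Trim2 (-1.56) were lower.

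Of the secreted proteins, Serpina3n, a serine protease inhibitor, was 1.24 ± 0.18 higher in the bound fraction, 2.35-fold (adjusted p = 4.91e-07). On the bound arrays its lowest, median and highest levels were 6.80, 7.70 and 8.35 in sleep deprivation, 7.49, 7.82 and 8.34 in waking, and 7.23, 7.72 and 7.94 in sleep. The unbound pools were at 5.96 and 5.72 in sleep deprivation, 6.74 and 6.35 in waking, and 6.59 and 6.66 in sleep, all below the bound arrays. Its only paralog analysed here, Serpina3i, was dim and 0.69 lower in the bound fraction. Paralogs of this cluster are much alike, and probe sets may read more than 1 of them.

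Lcn2, which encodes the iron-siderophore carrier lipocalin-2, was dim in both fractions. Its lowest, median and highest bound levels were 4.39, 4.69 and 5.11 in sleep deprivation, 4.46, 4.51 and 4.90 in waking, and 4.77, 4.87 and 5.11 in sleep. In the unbound fraction the pools were at 2.91 and 2.55 in sleep deprivation, 3.50 and 2.99 in waking, and 2.59 and 2.68 in sleep. The fractions did not overlap, and the bound fraction was 1.71 ± 0.11 higher, 3.27-fold (adjusted p = 2.01e-12).

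Among the receptors, Cd44 was 1.62 ± 0.16 higher in the bound fraction, 3.07-fold (adjusted p = 1.87e-09). On the bound arrays its lowest, median and highest levels were 6.70, 7.09 and 7.56 in sleep deprivation, 6.47, 6.58 and 7.36 in waking, and 5.73, 6.21 and 6.81 in sleep. The unbound pools were at 5.45 and 4.86 in sleep deprivation, 4.99 and 4.78 in waking, and 4.71 and 4.61 in sleep. In both fractions the state means ran in the order sleep deprivation, waking, sleep. The probe sets of Cd44 were not alike: 2 of the other 3 gave 0.60 ± 0.24 and 0.99 ± 0.17 and passed, and the last one gave -0.14 ± 0.09 and did not. The bound fraction had more of 6 and less of 1 among 10 ligands and partners of CD44. Ezr (3.57) and Msn (2.00), which tie CD44 to actin, and Nf2 (1.57), their relative merlin, were highest, and the hyaluronan synthase gene Has1 (-1.06) was lower.

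Osmr, the oncostatin M receptor, was 2.05 ± 0.37 higher in the bound fraction, 4.15-fold (adjusted p = 1.98e-05). Its lowest, median and highest bound levels were 5.79, 6.65 and 7.77 in sleep deprivation, 4.46, 5.80 and 6.83 in waking, and 4.81, 6.39 and 7.33 in sleep. In the unbound fraction the pools were at 3.79 and 3.79 in sleep deprivation, 4.77 and 4.21 in waking, and 3.78 and 3.89 in sleep. The bound arrays spread over more than 3 units, and the lowest ones reached the highest pool. A second probe set gave 1.39 ± 0.35, and 1 more, with a mean level of 2.77, gave -0.23 ± 0.10 and did not pass. Of the 16 genes of gp130 and STAT3 signalling listed, 8 passed as higher in the bound fraction and 3 as lower. The shared receptor chain Il6st (1.74), the CNTF receptor gene Cntfr (3.70) and Stat3 (1.91) were the 3 highest, and the ligand gene Osm, dim with a bound mean of 4.12, was 0.61 lower.

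S1pr3, a receptor for sphingosine-1-phosphate, did not pass the test, at -0.66 ± 0.34 (adjusted p = 0.19). On the bound arrays its lowest, median and highest levels were 4.65, 6.32 and 7.15 in sleep deprivation, 5.05, 6.60 and 7.53 in waking, and 5.94, 6.35 and 6.97 in sleep. The unbound pools were at 6.81 and 7.29 in sleep deprivation, 7.12 and 7.41 in waking, and 6.53 and 5.78 in sleep. Within each state the bound arrays and the pools overlapped, and both unbound sleep pools lay below the other 4 pools. Its other 2 probe sets passed in opposite directions, at -1.07 ± 0.17 and 0.36 ± 0.17, so that no direction can be given for S1pr3. Of the 11 other genes of this pathway, 6 passed as higher in the bound fraction and 3 as lower. The receptor S1pr1 (3.58), the lipid phosphatase Plpp3 (3.14) and the lyase Sgpl1 (1.78) were highest, and the phosphatase Sgpp2 (-2.87) and the receptor S1pr5 (-2.17) of oligodendrocytes were lowest.

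Steap4, a ferric and cupric reductase, was dim, with a bound mean of 3.91. Its lowest, median and highest bound levels were 3.80, 4.25 and 4.42 in sleep deprivation, 3.43, 3.48 and 3.72 in waking, and 3.62, 3.84 and 4.79 in sleep. In the unbound fraction the pools were at 2.84 and 2.61 in sleep deprivation, 4.00 and 3.43 in waking, and 4.18 and 4.10 in sleep. The fractions overlapped in waking and in sleep but not in sleep deprivation. Over the states the bound fraction was 0.22 ± 0.13 higher (adjusted p = 0.0129), a call lost when arrays were centred (adjusted p = 0.0755) and without unbound waking replicate 2 (adjusted p = 0.0809). Its other probe set gave -0.01 ± 0.18. Its relatives Steap3 (3.08) and Steap1 (2.52) were also higher in the bound fraction, as was the ferroxidase gene Heph (3.21), and the ferritin gene Fth1 (-0.76) was lower. In that list of iron genes 6 of 11 were higher and 1 was lower.

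The lists of other reactive astrocyte genes were mostly higher in the bound fraction. A list of 5 further genes, called pan-reactive, holds genes induced in several types of reactive astrocyte. Of these 5 genes 5 were higher, led by the chemokine gene Cxcl10 (3.07), Hspb1 (1.87) and the ferroxidase gene Cp (1.13). Of 9 genes of the neurotoxic type, called A1, 8 were higher, led by the complement inhibitor gene Serping1 (1.48), the immunoproteasome gene Psmb8 (1.41) and the guanylate-binding gene Gbp2 (1.15). Of 13 genes of the ischaemia type, called A2, 8 were higher and 2 lower, with Stat3 (1.91) and the sphingosine kinase gene Sphk1 (1.11) at the top and the cyclooxygenase gene Ptgs2 (-3.92) at the bottom. Over the 97 genes of all the pathway lists 69 passed, a share near the 69.4% of all genes, and the median difference was 0.26.

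**Figure D2:**
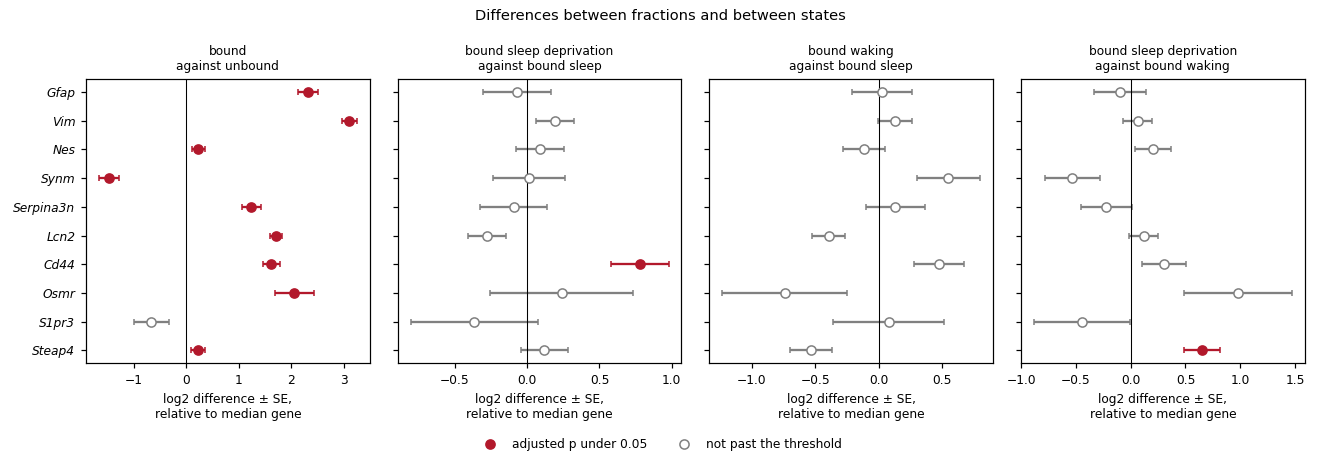
Log2 difference relative to the median gene (x axis) with its standard error for the 10 genes (y axis) between fractions and between states of the bound fraction. Filled red points passed the test. The fraction panel has 9 filled points, while sleep deprivation against sleep has 1 (Cd44), waking against sleep has 0, and sleep deprivation against waking has 1 (Steap4).

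The states were compared next, to see which of these genes differed between sleep and wakefulness in the bound fraction. In sleep deprivation against sleep 1 of the 10 genes passed, Cd44, where 14.3% of all genes did. In waking against sleep 0 of 10 passed, where 11.2% of all genes did. In sleep deprivation against waking 1 of 10 passed, Steap4, where 6.84% of all genes did. An unadjusted p under 0.05 was reached by 2 of the 10 in sleep deprivation against sleep (4796 of 18193 genes). It was reached by 4 of the 10 in waking against sleep (4211 genes) and 1 of the 10 in sleep deprivation against waking (3411 genes). No member had states without overlap in the comparisons with sleep (8.46% of all genes for sleep deprivation and 7.24% for waking), and 1, Steap4, did in sleep deprivation against waking (4.84%). The sleep arrays are shared by both comparisons with sleep.

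Gfap showed no call between states, with -0.07 ± 0.24 in sleep deprivation against sleep, 0.03 ± 0.24 in waking against sleep and -0.10 ± 0.24 in sleep deprivation against waking. Its other 2 probe sets, with smaller standard errors of 0.12 and 0.08, lay between -0.14 and -0.02 in these comparisons and did not pass either.

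Cd44 rose by 0.78 ± 0.20 in sleep deprivation against sleep, 1.71-fold (adjusted p = 0.00522). The 6 sleep-deprived arrays, at 6.70 to 7.56, all lay above the sleep mean of 6.20, and the groups overlapped because the highest sleep array was at 6.81. Waking arrays lay between, at 0.47 ± 0.20 above sleep (adjusted p = 0.0800). With the replicate number as a block that waking difference passed (adjusted p = 0.0327). Within animals 4 to 6 alone the difference between sleep deprivation and sleep was 0.97 (adjusted p = 0.0126), and within animals 1 to 3 it was 0.58 and did not pass (adjusted p = 0.137).

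The other Cd44 probe sets gave another order of the states. In sleep deprivation against sleep they were at 0.22 ± 0.28, 0.49 ± 0.21 and -0.35 ± 0.11, none past the threshold. In waking against sleep 2 of them were at -0.73 ± 0.28 and -0.62 ± 0.21, opposite in sign to the first, so that sleep deprivation exceeded waking by 0.95 ± 0.28 (adjusted p = 0.0447) and 1.11 ± 0.21 (adjusted p = 0.00213). For Cd44 the sign of waking against sleep thus rests on the probe set, while 3 of its 4 probe sets had sleep deprivation above sleep. The hyaluronan synthase genes Has1 (0.52) and Has2 (0.40) also passed as higher in sleep deprivation against sleep, and Has3 (0.85) in waking against sleep, all with mean levels under the median of all probe sets. They were the only genes of the 10 ligands and partners of CD44 to pass in these 2 comparisons. The call of Has2 was lost when quantile normalization was repeated over the 24 arrays (adjusted p = 0.142).

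Steap4 was 0.65 ± 0.16 higher in sleep deprivation than in waking, 1.57-fold (adjusted p = 0.0157). The sleep-deprived arrays, at 3.80 to 4.42, and the waking arrays, at 3.43 to 3.72, did not overlap. Against sleep it was at 0.12 ± 0.16 in sleep deprivation (adjusted p = 0.426) and -0.54 ± 0.16 in waking (adjusted p = 0.0908). The waking difference passed with the replicate number as a block (adjusted p = 0.0415). The second probe set of Steap4 moved the opposite way: 0.71 ± 0.23 in waking against sleep (adjusted p = 0.0274) and -0.37 ± 0.23 in sleep deprivation against waking. With the mean of both probe sets the difference between sleep deprivation and waking was 0.14 (adjusted p = 0.625). Within animals 1 to 3 it was 0.53 (adjusted p = 0.0910) and within animals 4 to 6 it was 0.77 (adjusted p = 0.143).

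**Figure D3:**
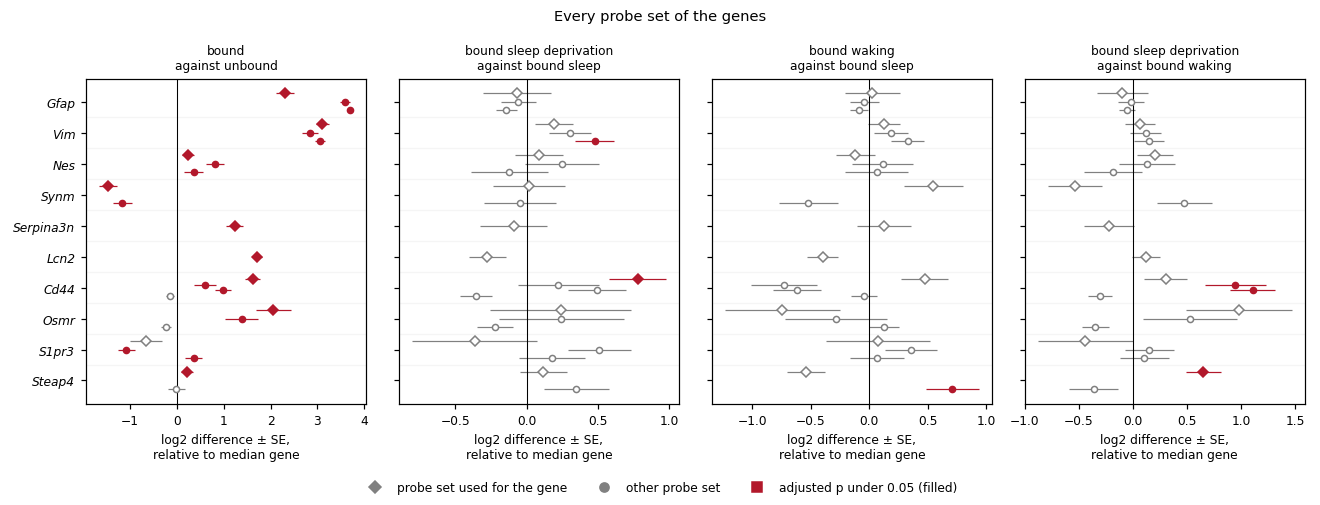
Log2 difference relative to the median gene (x axis) with its standard error for all 25 probe sets of the 10 genes (y axis), diamonds for the probe set used for the gene and circles for the others, with red filled symbols past the threshold over all probe sets. For the fractions all probe sets of Gfap (2.32 to 3.70) and Vim (2.84 to 3.10) lie above 0, whereas those of Cd44, Osmr, S1pr3 and Steap4 lie on both sides of 0.

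Vim was at 0.19 ± 0.13 in sleep deprivation against sleep (adjusted p = 0.151) and 0.13 ± 0.13 in waking against sleep (adjusted p = 0.376). All 3 of its probe sets were above 0 in both comparisons, and 1 passed in sleep deprivation against sleep, at 0.48 ± 0.14 (adjusted p = 0.00717). With the mean of the probe sets Vim passed in both, at 0.31 in sleep deprivation (adjusted p = 0.00343) and 0.20 in waking (adjusted p = 0.0387).

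Osmr was at 0.98 ± 0.49 in sleep deprivation against waking (adjusted p = 0.284). That was the largest bound state difference among the probe sets used for the 10 genes. It passed with the replicate number as a block (adjusted p = 0.0114), and ranged from 0.38 to 1.40 over the alternatives. Against sleep Osmr was at 0.24 ± 0.49 in sleep deprivation and -0.74 ± 0.49 in waking, neither past the threshold. With the mean of its probe sets Osmr was at -0.31 in waking against sleep (adjusted p = 0.458). Its ligand gene Osm was 0.53 higher in sleep deprivation and 0.49 higher in waking than in sleep, the only calls among 16 genes of gp130 and STAT3 signalling in these comparisons. The waking call of Osm was lost with quantile normalization repeated (adjusted p = 0.0645).

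The remaining 5 genes had no call between bound states. Synm was at 0.55 ± 0.25 in waking against sleep (adjusted p = 0.121), and its second probe set at -0.52 ± 0.25. Lcn2 was at -0.28 ± 0.13 in sleep deprivation and -0.40 ± 0.13 in waking against sleep (adjusted p = 0.163 for waking). The waking value of Lcn2 passed when arrays were centred on their medians (adjusted p = 0.0436) and when quantile normalization was repeated (adjusted p = 0.0244). Serpina3n, Nes and S1pr3 lay between -0.44 and 0.20 in the 3 comparisons, with adjusted p of 0.517 or more.

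Of the 97 pathway genes 13 passed between bound sleep deprivation and sleep, where 14.3% of all genes did, and 11 between bound waking and sleep, where 11.2% of all genes did. Both shares are near those of all genes. In the pan-reactive list 1 of 5 rose in sleep deprivation, Timp1 (0.81), a metalloproteinase inhibitor, a call lost with quantile normalization repeated (adjusted p = 0.0754). In the A1 list 1 of 9 rose, Fkbp5 (2.87), a co-chaperone of the glucocorticoid receptor and a known glucocorticoid target. In the A2 list Slc10a6 (1.36), a transporter of sulfated steroids, and the transglutaminase gene Tgm1 (0.47) rose in sleep deprivation. They also rose in waking, by 0.80 and 0.55, while Tm4sf1 (-0.65) fell there. Timp1, Slc10a6 and Tgm1 were dim, with bound means of 4.64, 4.32 and 4.87.

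In the sphingosine-1-phosphate pathway 2 of 11 genes fell in both comparisons with sleep. They were the kinase gene Sphk2 (-1.31 in sleep deprivation and -1.01 in waking) and the phosphatase gene Sgpp2 (-1.66 and -1.24). S1pr4 (0.59) rose in sleep deprivation, a call lost with quantile normalization repeated (adjusted p = 0.160) and with arrays centred (adjusted p = 0.0879). The mean of the probe sets of Sphk2 gave -0.24 and -0.09, not past the threshold. Sgpp2 and S1pr4 were dim, with bound means of 3.40 and 4.64. Among filament genes Bfsp1 (-0.51) fell and Prph (0.51) rose in sleep deprivation. In waking Bfsp1 (-0.50) fell, and Krt14 (0.45) and Lmnb1 (0.89) rose. With quantile normalization repeated neither rise passed (adjusted p = 0.0998 for Krt14 and 0.101 for Lmnb1), and with the replicate number as a block that of Lmnb1 did not (adjusted p = 0.0713). Bfsp1, Prph and Krt14 were dim, with bound means of 4.43, 5.37 and 5.02. Of the 9 linkers, chaperones and modifiers 0 passed between bound states. Among the iron genes Lrp2, a receptor that takes up lipocalin-2, rose by 0.31 in sleep deprivation and 1.14 in waking, with a bound mean level of 3.15. Its rise in sleep deprivation did not pass with arrays centred (adjusted p = 0.154).

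Markers of other cells were set beside these values. The mean level of 11 ependymal and choroid plexus markers ranged from 6.04 to 8.65 on the sleep-deprived, 6.17 to 8.65 on the waking and 6.72 to 8.90 on the sleep arrays of the bound fraction. The 10 endothelial markers averaged 4.77 to 5.46, 5.03 to 5.59 and 4.73 to 5.07 in the same order, with 0 past the threshold in sleep deprivation against sleep and 2 higher in waking. The 5 markers of neutrophils, a known source of Lcn2, averaged 4.58 to 4.77, 4.62 to 4.79 and 4.18 to 4.48. In sleep deprivation against sleep 2 of them were higher and 1 lower, with S100a8 and Ngp never above 5.34 on any bound array. The 9 microglial markers averaged 5.90 to 6.83, 6.49 to 6.91 and 6.13 to 6.66, and the 10 meningeal markers 7.94 to 9.01, 7.95 to 8.84 and 8.25 to 9.11. Both red blood cell markers tested, Alas2 (0.75) and Hba-a1 (0.49), were higher in sleep deprivation against sleep, and 1 of the 2, Hba-a1 (0.39), in waking against sleep. Their mean was 4.17 to 4.63, 3.86 to 4.33 and 3.42 to 3.83 in the same order, and all sleep-deprived arrays lay above all sleep arrays. Of the 10 pericyte and smooth muscle markers, averaging 5.82 to 6.08, 5.74 to 6.05 and 5.70 to 6.03, 2 were higher and 1 lower in each comparison with sleep. The part of these cells in the values of Cd44, Vim, Nes and the other genes was not tested.

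In the unbound fraction 0 of 10 genes passed in waking against sleep (6.32% of all genes), 1 of 10 in sleep deprivation against sleep (1.87%) and 0 of 10 in sleep deprivation against waking (0.759%). An unadjusted p under 0.05 was reached by 4 of the 10 in waking against sleep (5891 of 18193 genes). It was reached by 4 of the 10 in sleep deprivation against sleep (4610 genes) and 5 of the 10 in sleep deprivation against waking (3818 genes). Vim, at 1.17 ± 0.42 (adjusted p = 0.0769), and S1pr3, at 0.81 ± 0.30 (adjusted p = 0.0727), came nearest to the threshold in waking against sleep. With the mean of its probe sets Vim passed there, at 0.89 (adjusted p = 0.0392). Over the alternatives S1pr3 ranged from 0.24 to 1.17 and never passed. The 1 gene that passed was Steap4, lower in sleep deprivation by -1.59 ± 0.23 (adjusted p = 0.0470), with pools at 2.84 and 2.61 against 4.18 and 4.10 in sleep. The call was lost with the pool number as a block (adjusted p = 0.0780) and with any 1 of the 6 unbound arrays left out (adjusted p = 0.0990 to 0.201). No gene at all passed in the unbound comparisons when 1 array was left out. The 10 calls of pathway genes in unbound waking against sleep fell to 0 when quantile normalization was repeated or arrays were centred.

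Whether state differences themselves differed between the fractions was tested in 1 model of all arrays. For sleep deprivation against sleep 4.89% of all genes passed and 1 of the 10, Steap4, whose difference was 1.71 ± 0.32 higher in the bound fraction (adjusted p = 0.00376). Its second probe set gave 0.56 ± 0.43 (adjusted p = 0.662). For waking against sleep 5.6% of all genes passed and 1 of the 10, Vim, whose difference was 1.04 ± 0.35 lower in the bound fraction (-1.04, adjusted p = 0.0357). The other Vim probe sets gave -0.70 ± 0.40 and -0.25 ± 0.26 and did not pass. The Vim call was lost in 11 of 30 alternatives, among them repeated quantile normalization (adjusted p = 0.146) and the loss of any 1 unbound waking or sleep pool (adjusted p = 0.113 to 0.128). Lcn2 missed the threshold at -0.69 ± 0.27 (adjusted p = 0.0501). It passed with each unbound pool blocked with the bound arrays of its own animals (adjusted p = 0.0429).

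The bound arrays of 3 of the genes split by animal number within states. The labels give the sets of animals 1 to 3 and 4 to 6 only as the pools of the unbound fraction. Gfap was higher in animals 4 to 6 than in animals 1 to 3 by 0.75 in sleep deprivation, 0.80 in waking and 0.72 in sleep, and the sets did not overlap in any state. Osmr was lower in animals 4 to 6 by -1.02, -1.88 and -1.59, again with no overlap. S1pr3 was higher in animals 4 to 6 by 1.79, 1.26 and 0.48, overlapping in sleep alone.

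Over all genes the difference between the sets, averaged over the states, had a median of 0.01 and ran from -0.90 to 0.82 between the 5th and the 95th percentile. With means of -1.50 and 1.18 Osmr and S1pr3 lay outside this range and Gfap, with 0.76, inside it. The other 7 genes lay between -0.52 and 0.33. Among these, the sets did not overlap for Vim in waking and sleep (0.36 and 0.27), Synm in waking (0.58), Serpina3n and Steap4 in sleep deprivation (-1.05 and 0.24) and Cd44 in sleep (-0.66). The share of all genes whose sets did not overlap was not counted. Sets without overlap, those of Gfap, Osmr and S1pr3 included, are therefore not read as particular to these genes. The unbound pools did not show the same split for Gfap, where the pool of animals 4 to 6 was higher in sleep deprivation (10.74 against 10.61) and lower in waking (9.93 against 10.71) and sleep (9.34 against 10.001). Aldh1l1 was lower in animals 4 to 6 by 0.20 to 0.51 in the bound states (-0.20, -0.38 and -0.51), and the mean of the 12 astrocyte markers by -0.15, -0.06 and -0.11. The ependymal and choroid plexus markers differed by 0.74, -0.81 and 1.52. The part of these in the split was not tested.

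The genes most like each of the 10 over the 18 bound arrays, after the state means were taken off, are given next. For Gfap they were Top2b, Rbbp4 and Desi2, with Pearson's r of 0.98, 0.98 and 0.98, which came to 0.77, 0.69 and 0.83 once the means of the 2 animal sets were taken off as well. For Osmr they were Kat2a, Rgs7 and Med24, with r of 0.95, 0.94 and 0.94 before and 0.78, 0.71 and 0.55 after. For S1pr3 they were Hs2st1, Nfib and Ubash3b, with 0.90, 0.90 and 0.89 before and 0.72, 0.68 and 0.62 after. For Cd44 they were Sstr4, Ube2c and Slc30a9 (0.85, 0.85 and 0.84 before, 0.74, 0.78 and 0.67 after). For Vim they were Parp1, Sertad4 and Tmtc3 (0.92, 0.91 and 0.90 before, 0.81, 0.87 and 0.78 after). These are descriptions over 18 arrays, each of 1 animal. The genes were chosen by r before the set means were taken off. A lower r after can thus come from the choice alone. Candidates were genes outside the 10 with a bound mean at or above the median of all probe sets, without unnamed and predicted transcripts. For the other 5 genes the most alike were Fam53c for Nes (0.87 before and 0.85 after), Pfdn4 for Synm (0.78 and 0.76), Tpst2 for Serpina3n (0.88 and 0.62), Slc25a47 for Lcn2 (0.82 and 0.85) and Tmem41b for Steap4 (0.80 and 0.76).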

How the data were processed

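The deposited values were log2 intensities made by the authors with RMA, per the submitters' processing notes. Its version, and which arrays were normalized together, are not given in the sources used here. The table held 45101 probe sets of the Affymetrix Mouse Genome 430 2.0 array on 24 arrays, with no value absent. Leaving out 64 controls, the array annotation named 1 gene symbol for 34945, several for 932 and none for 9160. RefSeq's gene table held the Entrez ID of 34741 of the first kind. This gave 18193 genes, each read by its probe set of highest mean over the 24 arrays.

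Models were fitted in limma 3.58.1 (R 4.3.3, lmFit and eBayes). The fractions and differences of state effects used 24 arrays in 6 groups, the states the 18 bound or 6 unbound arrays. The main fits of 24 arrays gave single animals and pools 1 shared spread per gene, and did not pair the fractions by animal. The models were also run on simulated data with known changes, drawn as independent arrays with 1 spread per gene. That simulation held no animal sets or shared animals, and its outcome is not given here. The number of arrays limits precision. A gene is called dim where its mean over the bound arrays is below 5.80, the median of all probe sets there. The alternative without dim genes takes both over the arrays of each fit. Tables and figures were made with Python 3.11.15, pandas 2.3.3 and matplotlib 3.10.9. The 10 genes, the 10 pathway lists and 11 marker lists were chosen with earlier results of these data known. Named pathway genes are at most the 3 highest and 3 lowest past the threshold per list and comparison; defining markers are the first 3 of a list. List genes without a probe set of 1 symbol were not analysed here.

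Bound arrays with the same animal number deviated together across states (correlation of residuals 0.268 to 0.530 over 18 pairs), and by -0.109 to 0.181 once the difference between animals 1 to 3 and 4 to 6 was removed. The unbound pools gave 0.00 to 0.03 and share only a number. For the fractions, the series' design text gives the pools as the same animals as the bound arrays. Nothing says that animals of different states with 1 number share a litter or day. The replicate block used this number within a fraction. Across fractions it joined each pool with the bound arrays of its animals. Fits with the replicate block or the animal set block, other normalizations, filters and probe set rules, and each array left out, were alternatives. Reading the other probe sets of the 10 genes one by one, and the pathway genes under the alternatives, was chosen after seeing the data.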

Additional observations from a re-analysis of the deposited data

Results flagged for a closer look

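Steap4 had an array far from the others in 2 bound groups. In sleep deprivation replicate 3 was lowest, at 3.80 against 4.23 for the next array and 4.42 for the highest, a gap of 0.696 of the whole range. In sleep replicate 4 was highest, at 4.79 against 4.04 for the next and 3.62 for the lowest, a gap of 0.639 of the range, above the critical value of 0.625 for 6 arrays. Without that sleep array, sleep deprivation against sleep passed the test for Steap4 (0.28, adjusted p = 0.0380). Of 30 groups of 6 bound arrays 2 had such an array, and chance gives about 1 in 20.

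The effect of sleep deprivation on Steap4 differed between the fractions by 1.6436 log2 units before the shift of the median gene, 1.71 ± 0.32 relative to it (adjusted p = 0.00376). The effect of waking on Vim differed between the fractions by -1.259, or -1.04 ± 0.35 relative to the median gene (adjusted p = 0.0357). Both rest on 2 pools for each unbound group.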

How the results depend on the processing

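Of 414 counts of genes or members by comparison and alternative, 303 kept within 1.5 times the main count and 111 moved, and of 2034 values of single members 26 lost and 27 gained a call and 0 reversed one. Gfap, Vim, Serpina3n, Lcn2, Cd44, Osmr and Synm kept their calls between fractions in every alternative that tested them. Nes and Steap4 lost theirs when arrays were centred on their medians, and Steap4 without 1 unbound waking pool (replicate 2).

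The bound and the unbound comparisons below are given in the order waking against sleep, sleep deprivation against sleep, sleep deprivation against waking. Without genes whose mean over the arrays of the fit lay below the median of all probe sets, which over all 24 arrays also leaves out Osmr, the members past the threshold numbered 5 of 6 tested for the fractions, 0 for both effects of state between fractions, 0 for the last bound comparison and 0 for the unbound comparison of sleep deprivation with sleep. Genes numbered 37 for the waking effect and 22 for the sleep deprivation effect between fractions, 142, 334 and 76 for the bound and 130, 0 and 0 for the unbound comparisons. Here fewer genes are tested.

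With every probe set tested, the probe sets past the threshold numbered 23793 for the fractions, 2145 and 1810 for the waking and sleep deprivation effects between fractions, 4087, 5063 and 2606 for the bound comparisons, and 2119, 744 and 319 for the unbound ones, and 2 members passed for the waking effect. With the probe sets of each gene averaged, members numbered 2 for the waking effect between fractions, 1 and 2 for the first bound comparisons (Vim, and Cd44 with Vim), and 1 and 0 for the first unbound ones, and genes 2031, 568 and 210 for the unbound comparisons.

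With quantile normalization repeated, 2 members passed in bound waking against sleep (Lcn2 and Steap4), and genes numbered 1726 in bound sleep deprivation against sleep and 0, 149 and 2 in the unbound comparisons. With arrays centred, members numbered 0 for the waking effect between fractions and 2 in bound waking against sleep (Lcn2 and Steap4), and genes 0, 128 and 5 in the unbound comparisons. These scalings move the split of all genes: bound waking against sleep had 1650 higher and 389 lower genes as deposited, 741 and 636 after quantile normalization and 835 and 795 after centring. Bound sleep deprivation against sleep had 2230 and 367, against 963 and 763, and 1074 and 768. Unbound sleep deprivation against sleep had 259 and 82, against 71 and 78, and 53 and 75. The waking effect between fractions had 343 and 675, against 504 and 428, and 528 and 291. The cause was not tested.

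Across the fractions the replicate block joined each pool with the bound arrays of its animals. There 2 members passed for the waking effect (Vim and Lcn2). Within a fraction the block was the replicate number. Members then numbered 2 in bound waking against sleep (Cd44 and Steap4) and 2 in bound sleep deprivation against waking (Osmr and Steap4). They numbered 0 in unbound sleep deprivation against sleep, and the replicate block changed no other call of a member. Genes numbered 3064 in bound waking against sleep, 1913 in bound sleep deprivation against waking, and 0, 0 and 0 in the unbound comparisons, where the pools share only a number. With the animal set as a block, 2 members passed in each bound comparison (Cd44 and Steap4 in waking against sleep, Cd44 and Vim in sleep deprivation against sleep, Osmr and Steap4 in sleep deprivation against waking), and genes numbered 3385, 4102 and 2164. Within animals 1 to 3 they numbered 937, 1476 and 585, with 0 members in both comparisons of sleep deprivation. Within animals 4 to 6 they numbered 638, 1134 and 143, with 0 members in sleep deprivation against waking. These sets hold fewer arrays.

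With each array left out in turn, genes ranged from 11899 to 12706 and members from 8 to 9 for the fractions, 502 to 1014 and 0 to 2 for the waking effect, and 447 to 883 and 1 to 1 for the sleep deprivation effect between fractions. In the bound comparisons they ranged from 1706 to 2062 and 0 to 1 (Cd44 passed without sleep replicate 1) in waking against sleep, 2231 to 2604 and 1 to 2 (Steap4 passed without sleep replicate 4) in sleep deprivation against sleep, and 999 to 1277 and 1 to 1 in sleep deprivation against waking. In all unbound comparisons both were 0 to 0. The low counts of the differences of state effects arose when 1 unbound pool was left out. Without unbound sleep replicate 1 they were 502 and 447, without unbound sleep replicate 2 511 and 485, without unbound waking replicates 1 and 2 the waking effect had 533 and 536, and without unbound sleep deprivation replicates 1 and 2 the sleep deprivation effect had 505 and 464. At 2 pools a group the unbound comparisons can miss changes, and for the dim genes Nes, Lcn2 and Steap4 the signal over background is a limit as well.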
